A study of Homo sapiens with 5 samples.

Results

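The BAG family and the HSP70 cochaperones were followed here as 9 genes chosen by name: BAG1, BAG2, BAG3, BAG4, BAG5, BAG6, ST13, HSPBP1 and STUB1. They are 9 of the 20033 protein-coding genes of the GENCODE 44 annotation of GRCh38 on chromosomes 1 to 22, X and Y. For each gene, all peaks of HSF1 and MYC were taken from 5 kb upstream of the gene start to the gene end. The peaks come from CUT&RUN, in which an antibody directs a nuclease to a chromatin protein so that the DNA cut free next to it can be sequenced. OVCAR8, an established human ovarian carcinoma line, was grown without treatment, and 500000 cells per reaction were fixed in 1% formaldehyde for 1 min. There were 2 libraries with an HSF1 antibody, 2 with a MYC antibody and 1 with non-specific IgG, against which each of the other 4 had been called. The study asked where the binding of HSF1 and MYC coincides. All libraries came from this single line, and the labels do not say whether replicates were separate cultures, so the spread between replicates may be technical.

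HSP70 chaperones bind unfolded stretches of proteins in a cycle driven by ATP, and cochaperones set the pace and the outcome of that cycle. Several BAG domain proteins and HSPBP1 speed the release of ADP and so of the client, and ST13 (also called HIP) slows that step. STUB1 (also called CHIP) attaches ubiquitin to clients held by the chaperone. HSF1 is the main transcription factor of the heat shock response and binds inverted repeats of GAA, the heat shock element, while MYC binds as a dimer with MAX to E-boxes.

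A peak was counted as reproducible where peaks of both replicates of a factor shared at least 1 bp, and the merged interval was then 1 site. Reproducible HSF1 peaks lay at 4 of the 9 genes, BAG2, BAG3, BAG5 and ST13, which is 44.4%, beside 6.41% of all protein-coding genes. Reproducible MYC peaks lay at 8 of the 9, at every gene except HSPBP1, which is 88.9%, beside 44.6% of all protein-coding genes. The same 4 genes that had an HSF1 peak also had a MYC peak somewhere in the window, against 5.2% of all genes. At 2 of them, BAG2 and ST13, the intervals of both factors overlapped, which is 22.2%, against 3.65% of all genes. Among all protein-coding genes, 1285 had an HSF1 peak, 1042 of these also had a MYC peak, and at 732 the intervals overlapped. Having both factors was thus usual for a gene with an HSF1 peak and not particular to these 4. The windows of most of the 9 genes are not long: 7 are shorter than the median protein-coding gene of 27471 bp. The longest, BAG4, spans 36769 bp. These counts were not tested, because the 9 genes were chosen with results of these data known.

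**Figure D1:**
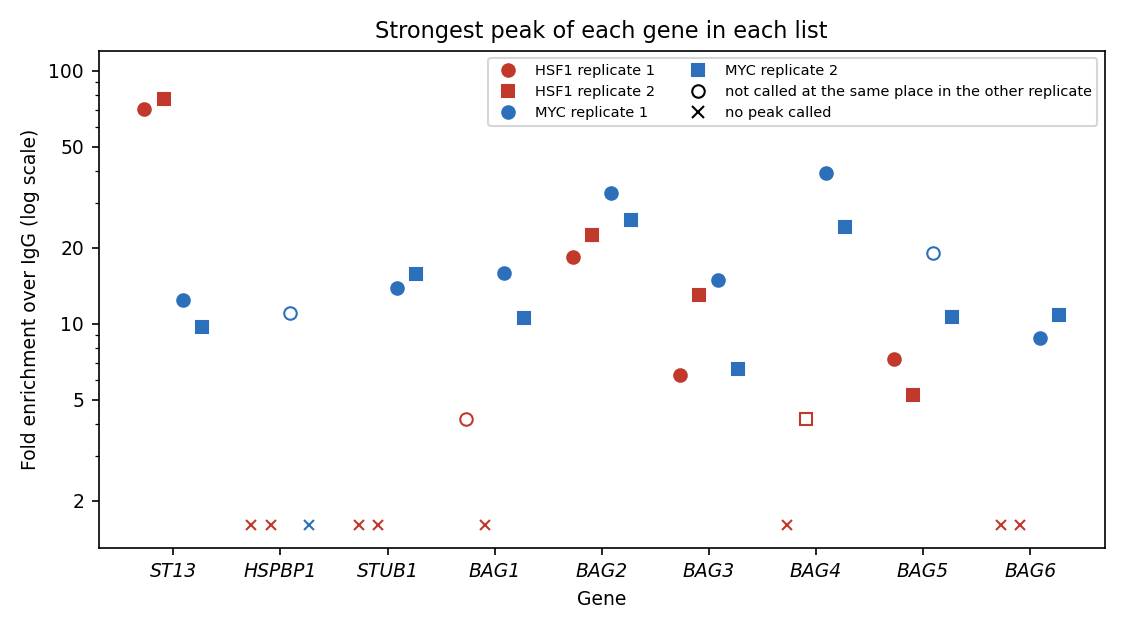
Fold enrichment over IgG (log scale) of the strongest peak of each gene in each of the 4 peak lists, with open symbols for peaks called at that place in 1 replicate only and crosses where a list has no peak in the window. ST13 holds the highest HSF1 values, 70.6 and 77.6, while BAG4 and BAG2 hold the highest reproducible MYC values.

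The strongest HSF1 peak of the group was at ST13, the cochaperone that holds HSP70 in its ADP-bound state. ST13 occupies bases 40824535 to 40856639 of chromosome 22, on the minus strand, and both HSF1 summits fell just upstream of its start. The sequence of that stretch is shown on the strand of the gene, from 242 to 105 bases upstream of the start, because it holds the summits of both factors in all 4 lists and, in capitals, a heat shock element of 3 alternating units with the pattern TTCNNGAANNTTC.
ST13 upstream region, chr22:40856744-40856881, GRCh38, minus strand: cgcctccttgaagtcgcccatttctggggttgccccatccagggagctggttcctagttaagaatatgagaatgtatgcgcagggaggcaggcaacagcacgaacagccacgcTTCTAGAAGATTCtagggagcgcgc

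Beside it stands the corresponding stretch of BAG2, a nucleotide exchange factor that also inhibits the ubiquitin ligase STUB1. BAG2 lies on the plus strand of chromosome 6, from 57172326 to 57189833. Its sequence is shown from 836 to 965 bases downstream of the start, inside intron 1, because both HSF1 summits lie in it. The first run of capitals is a heat shock element of the same pattern and the second an E-box.
BAG2 intron 1, chr6:57173162-57173291, GRCh38, plus strand: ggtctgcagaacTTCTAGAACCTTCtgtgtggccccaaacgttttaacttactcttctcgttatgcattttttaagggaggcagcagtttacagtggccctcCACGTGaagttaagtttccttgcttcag
Both elements open with TTCTAGAA, an inverted pair of units without any mismatch.

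At ST13, 260 HSF1 fragments covered the summit in replicate 1 and 222 in replicate 2, which is 25.9 and 25.5 per 1000000 fragments of the library. The fold enrichment over IgG, which is the pileup plus 1 divided by the scaled IgG background plus 1, was 70.6 in replicate 1 and 77.6 in replicate 2, or 74.1 ± 4.95 (SD, n = 2). The peak ranked 2 among 6421 HSF1 peaks of replicate 1 and 3 among 4459 of replicate 2, and by the mean of both it was the 2nd of 2141 reproducible HSF1 sites. The summits stood 219 and 230 bp upstream of the start, 11 bp apart, while the median distance between replicate summits over all HSF1 sites was 78 bp. In replicate 1 a second and much smaller peak was called 1060 bp downstream, in intron 1, with a fold enrichment of 5.34. In replicate 2 a single peak of 2451 bp covered both places.

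The MYC peak of ST13 was of ordinary height. In replicate 1, 39 MYC fragments covered the summit, with a fold enrichment of 12.4, and in replicate 2 there were 35, with 9.71. The mean was 11.1 ± 1.92 (SD, n = 2), and 28.2% of the 11756 reproducible MYC sites had a lower mean. Both MYC summits fell 214 bp upstream of the start, on the same base, and lay 5 and 16 bp from the HSF1 summits of the same replicate number. The heat shock element, at chr22:40856756-40856768, was inside the peaks of all 4 lists, with its centre 96 and 107 bp from the HSF1 summits and 91 bp from either MYC summit. No CACGTG lay in the HSF1 or the MYC interval of ST13.

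The start of XPNPEP3, a gene for an aminopeptidase on the opposite strand, lies 438 bp upstream of that of ST13. It was inside the HSF1 peak of both replicates and inside the MYC peak of replicate 1, so the site belongs to the window of both genes and cannot be assigned to either from these lists. By fold enrichment over the 4 lists, XPNPEP3 was for this reason identical to ST13. This comparison takes the strongest site of each factor anywhere in the window, so the sites of a gene need not overlap as those of ST13 do. Among the 1042 genes with reproducible peaks of both factors, the next nearest on the log2 scale was DSCAML1. It had HSF1 values of 112.0 and 77.4 and MYC values of 12.7 and 9.31. HSPA8, the constitutive cytosolic HSP70 that ST13 binds, came after it, with HSF1 values of 42.7 and 45.5 and MYC values of 17.4 and 10.4.

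**Figure D2:**
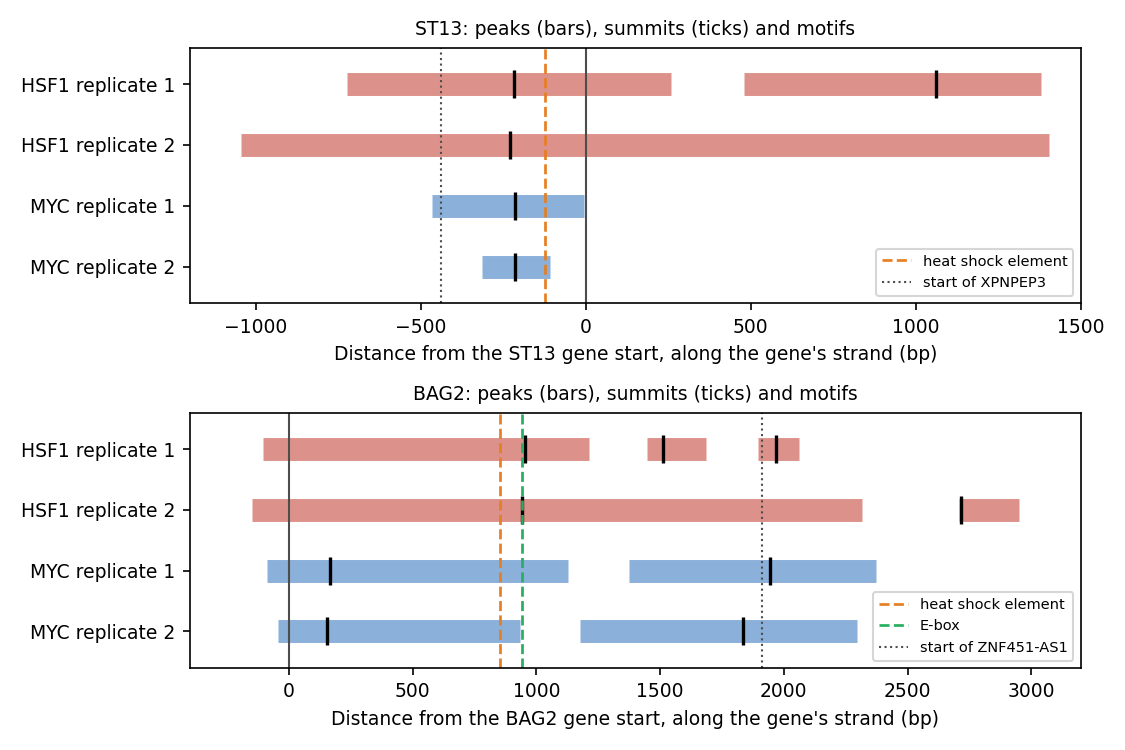
Peaks (bars) and summits (ticks) of the 4 lists around the starts of ST13 and BAG2, plotted by distance from the gene start in bp along the strand of the gene, with the heat shock element, the E-box and the start of a neighbouring gene as vertical lines. At ST13 all 4 summits lie together upstream of the start, while at BAG2 the HSF1 summits lie 787 and 789 bp downstream of the MYC summits.

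At BAG2 both factors had strong peaks, with their summits apart. HSF1 covered its summit with 57 fragments in replicate 1 and 53 in replicate 2, and the fold enrichment was 18.4 and 22.4. The mean was 20.4 ± 2.89 (SD, n = 2), the 110th of the 2141 HSF1 sites. The summits were 953 and 943 bp downstream of the start, in intron 1, 10 bp apart. The HSF1 peak of replicate 2 ran on over 2466 bp, and within that stretch replicate 1 had 2 smaller peaks, 1512 and 1970 bp from the start, with fold enrichments of 6.09 and 4.2. A further small peak, 2717 bp from the start with a fold enrichment of 3.85, was called in replicate 2 alone.

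MYC had its summit in the 5′ untranslated part of exon 1 of BAG2, 166 bp from the start in replicate 1 and 154 bp in replicate 2. There 61 and 54 fragments gave fold enrichments of 33.0 and 25.7, a mean of 29.3 ± 5.14 (SD, n = 2) that was the 314th of the 11756 MYC sites. A second MYC site followed in intron 1, with summits 1943 and 1836 bp from the start and fold enrichments of 10.4 and 12.5, near the start of the antisense transcript ZNF451-AS1 at 1910 bp. The heat shock element of BAG2, at chr6:57173174-57173186, lay 99 and 89 bp from the HSF1 summits and 688 and 700 bp from the MYC summits. Its E-box, at chr6:57173264-57173269, lay 12 and 2 bp from the HSF1 summits and 774 and 786 bp from the MYC summits, inside the MYC peak of replicate 1 and outside that of replicate 2. The E-box of BAG2 thus stood beside the HSF1 summit and not beside that of MYC. Of the 2141 HSF1 sites, 7, or 0.327%, held both motifs within 100 bp of the strongest summit, and BAG2 was 1 of them. In the same windows 10.1% held a heat shock element and 2.94% an E-box. Whether the motifs occur together more often than these shares imply was not tested.

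The signal of the factors at the overlapping sites was set side by side as the log2 ratio of HSF1 to MYC pileup at the strongest summit, each per 1000000 fragments, with lists of the same replicate number. The antibodies differ, so the ratio orders sites and does not measure bound protein. At ST13 it was 2.46 in replicate 1 and 2.87 in replicate 2, a mean of 2.67 ± 0.30 (SD, n = 2), so HSF1 was 5.49- and 7.33-fold higher. At BAG2 it was −0.38 in replicate 1 and 0.18 in replicate 2, a mean of −0.10 ± 0.40 (SD, n = 2), so the sign changed between replicates. The HSF1 and MYC summits of BAG2 were 787 and 789 bp apart, against 5 and 16 bp at ST13. The ratio of BAG2 thus sets separate places of overlapping intervals side by side. Over all 916 overlapping sites the median was −1.91 in replicate 1 and −0.94 in replicate 2, and 6.0% and 20.2% of sites lay above 0. The ratio of BAG2 rose between replicates as this median did. The SD of the difference between replicates was 0.62. ST13 ranked 1st in replicate 1 and 4th in replicate 2, and BAG2 ranked 85th and 160th. ST13 lay above BAG2 in both replicates. The SD of 0.62 describes the change of a site between replicates and gives no spread for a difference between sites. An exact permutation test of 2 libraries against 2 cannot give a two-sided p below 0.333, so no test was made of either ratio.

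**Figure D3:**
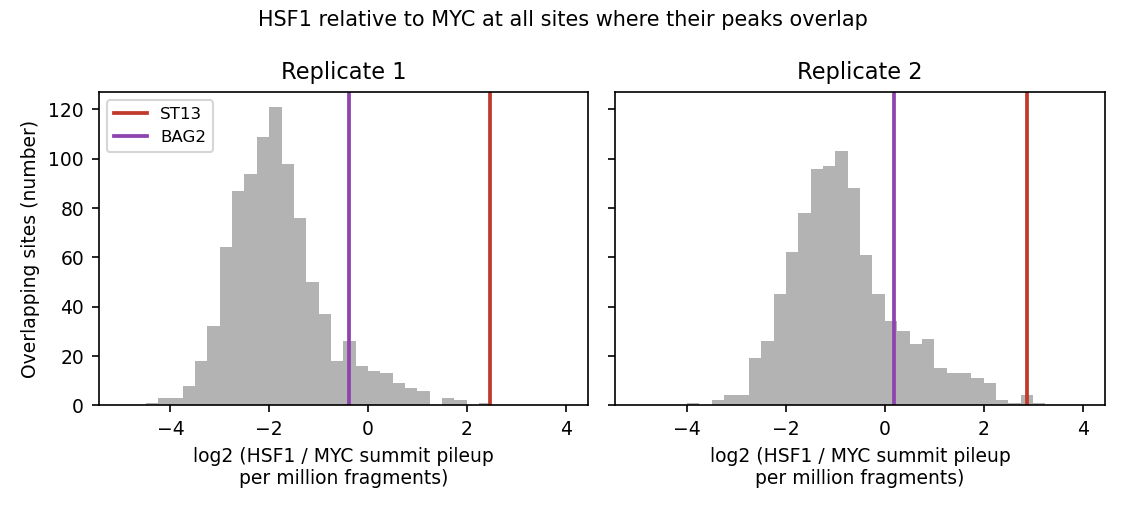
Number of overlapping HSF1 and MYC sites by the log2 ratio of HSF1 to MYC summit pileup per 1000000 fragments, in replicate 1 and replicate 2, with ST13 and BAG2 as vertical lines. ST13 lies at 2.46 and 2.87, in the far right tail of both distributions, and BAG2 at −0.38 and 0.18.

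BAG3 couples HSP70 to small heat shock proteins and to autophagy, and is widely used as a marker of the heat shock response. It lies on the plus strand of chromosome 10, from 119651380 to 119677819. Its reproducible HSF1 site spanned the gene start, with summits 13 bp upstream in replicate 1 and 31 bp downstream in replicate 2. The HSF1 pileup there was 9 fragments in replicate 1 and 19 in replicate 2, and the fold enrichment was 6.25 and 13. The mean was 9.64 ± 4.8 (SD, n = 2), the 453rd of the 2141 HSF1 sites, and the replicates differed by 1.06 on the log2 scale, within the range of −0.84 to 1.14 between the 5th and 95th percentiles of all HSF1 sites. This site was therefore lower than those of ST13 and BAG2 in both replicates. No complete heat shock element lay in it, but an inverted pair of units without mismatch, GAAGTTTC, lay 16 bp from the strongest HSF1 summit. Within 100 bp of the strongest summit, 32.2% of all HSF1 sites held such a pair and 25.4% an element with at most 1 mismatch. The nearest match to a complete element, which matched all but 1 of the 9 fixed bases, began 112 bp from the start in exon 1. It is shown with its flanks, the element in capitals.
BAG3 exon 1, chr10:119651492-119651504 in capitals, GRCh38, plus strand: gctatTTCCAGACACTTCcaccc

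MYC had a peak at the start of BAG3 in replicate 1 alone, with 18 fragments and a fold enrichment of 12.2. Its reproducible site was far inside intron 1, with summits 16525 and 16654 bp from the start. Pileup at that site was 47 fragments in replicate 1 and 20 in replicate 2, and the fold enrichment was 14.9 and 6.63, a log2 ratio of replicate 2 to replicate 1 of −1.17. HSF1 was called there too, but at separate places in each replicate: at 16619 bp in replicate 1, with a fold enrichment of 4.2, and at 16352 bp in replicate 2, with 4.16. Those peaks were 28 bp apart, so the HSF1 signal was not counted as reproducible although each touched the MYC site. A further HSF1 peak at 12792 bp and MYC peaks at 4468, 12755 and 20776 bp were called in replicate 1 alone, with fold enrichments between 5.06 and 9.88.

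BAG5, which carries several BAG domains, is read from the minus strand of chromosome 14, between 103556545 and 103562657. Here, as at BAG3, the reproducible sites of the factors lay kilobases apart, with HSF1 far from the start at this gene and MYC at the other. HSF1 had its site in the 3′ untranslated part of exon 2, with summits 4145 and 4237 bp from the start, 18 and 7 fragments, and fold enrichments of 7.26 and 5.21. The mean was 6.23 ± 1.44 (SD, n = 2), close to the median of 6.39 over all HSF1 sites. MYC had a stronger peak at the same place in replicate 1, with 35 fragments and a fold enrichment of 19.1, and none there in replicate 2. The reproducible MYC site was upstream of the start, with summits 167 and 129 bp away and fold enrichments of 10.5 and 10.6. COA8 and the gene ENSG00000256500 start 303 and 305 bp upstream on the other strand, inside both MYC peaks, and KLC1 starts 761 bp downstream, and the windows of all 3 hold both sites.

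**Figure D4:**
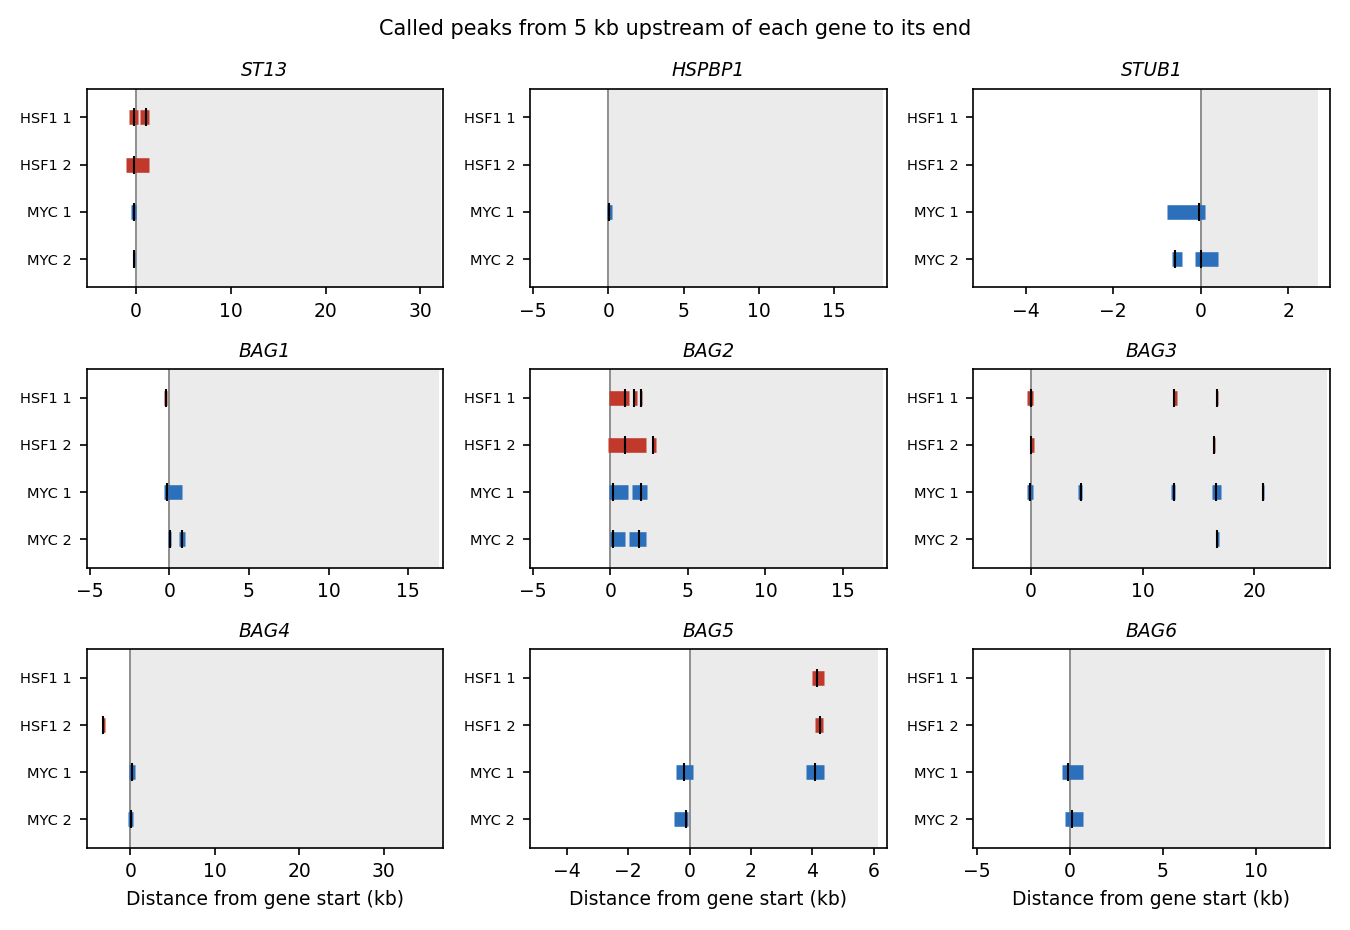
All called peaks of the 4 lists from 5 kb upstream of each gene to its end, by distance from the gene start in kb along the strand of the gene, with summits as black ticks and the gene shaded. MYC peaks lie at or near the start of every gene in at least 1 replicate, and HSF1 peaks of both replicates meet at ST13, BAG2, BAG3 and BAG5.

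At the other 5 genes HSF1 had no reproducible peak. BAG1, a nucleotide exchange factor that links HSP70 to the proteasome, had an HSF1 peak of 10 fragments and a fold enrichment of 4.2 in replicate 1, 213 bp upstream of the start. BAG4, also known as the silencer of death domains for its binding to a TNF receptor, had one of 9 fragments and 4.19 in replicate 2, 3240 bp upstream. Both were below the median HSF1 peak of their lists, which was 5.0 in replicate 1 and 5.21 in replicate 2. BAG6, which shields hydrophobic segments of newly made membrane proteins, and HSPBP1 and STUB1 had no HSF1 peak in either list. A gene without a peak was below the threshold at this depth, which does not show that HSF1 was absent.

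MYC was highest at BAG4 by mean fold enrichment and by pileup. BAG4 lies on chromosome 8 from 38176533 to 38213301. Pileup was 111 fragments in replicate 1 and 78 in replicate 2, with fold enrichments of 39.4 and 24.1, or 31.8 ± 10.8 (SD, n = 2), the 205th of 11756 sites. BAG2 had 33.0 and 25.7, so these values overlapped and neither gene stood above the other. All other reproducible MYC sites of the group were lower than both in each replicate, between 6.63 and 15.9. The MYC summits of BAG4 were 152 and 120 bp downstream of the start of the gene record, which is upstream of its canonical transcript. LSM1 starts 197 bp away on the opposite strand, inside both peaks.

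STUB1, the ubiquitin ligase that BAG2 and HSPBP1 inhibit, had MYC summits 49 bp upstream of its start in replicate 1 and 4 bp downstream in replicate 2. It lies on chromosome 16, from 680224 to 682870. The fold enrichment was 13.9 and 15.7, or 14.8 ± 1.29 (SD, n = 2), above the median of 13.3 over all MYC sites. Replicate 2 had a further peak 581 bp upstream, with 8.49, near the divergent transcript STUB1-DT that starts 447 bp upstream. BAG1, on chromosome 9 from 33247820 to 33264720, had a MYC site with 15.9 in replicate 1 and 10.5 in replicate 2. The replicates did not place it alike, since the summit of replicate 1 was 169 bp upstream of the start, where CHMP5 starts 159 bp upstream on the other strand, while replicate 2 had separate peaks 774 and 16 bp downstream.

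BAG6, on chromosome 6 from 31639028 to 31652705, had many MYC fragments and little enrichment. Its pileup of 74 and 67 fragments was above the 61 and 54 of BAG2, but the scaled IgG background was 7.55 and 5.28 fragments, the highest of any peak of the group, and the fold enrichment was 8.77 and 10.8. APOM, a gene of the opposite strand, starts 289 bp inside BAG6, within both peaks. HSPBP1, on chromosome 19 from 55262223 to 55280381, had a single MYC peak, in replicate 1, with 31 fragments and a fold enrichment of 11, 44 bp from the start. This was below the median of 12.2 of that list. Within 1 kb of the start, MYC was reproducible at 7 of the 9 genes, 77.8%, beside 34.4% of all protein-coding genes, with BAG3 and HSPBP1 the exceptions. HSF1 was reproducible there at 3 genes, BAG2, BAG3 and ST13, which is 33.3%, beside 2.4%. The overlapping sites of BAG2 and ST13 both reached into this narrower window, 22.2% of the group beside 1.99% of all genes. Of all protein-coding genes, 480 had an HSF1 site in that window, and 398 of these had overlapping sites.

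Taken singly, the HSF1 lists had a peak at 5 genes each, 55.6%, beside 16.5% of all genes in replicate 1 and 12.3% in replicate 2. The genes differed, since BAG1 was in the first list only and BAG4 in the second only. The MYC lists had a peak at all 9 in replicate 1, beside 63.3% of all genes, and at 8 in replicate 2, beside 46.2%.

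The thresholds of the lists differ, 1e-04 for HSF1 and 1e-10 for MYC. With HSF1 peaks held to 1e-10 as well, only ST13 and BAG2 kept a reproducible HSF1 site, 2 of 9, beside 2.67% of all protein-coding genes. The overlap of the factors at these genes was unchanged by that step. It was not unchanged by which lists were used: without MYC replicate 2 the overlap took in BAG3 and BAG5 as well, and without HSF1 replicate 2 it took in BAG1 and BAG3, which gave 4 genes each time. Without HSF1 replicate 1 it took in BAG3, which gave 3.

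Motifs were searched on both strands in the 201 bp around the strongest summit. A complete heat shock element, GAANNTTCNNGAA or TTCNNGAANNTTC, was found at BAG2 alone of the 4 genes with an HSF1 site, and 10.1% of all HSF1 sites, 0.315% of MYC sites and 0.235% of the same length at all gene starts held one. The element of ST13 began just beyond that window, and over the whole interval both genes had one, against 25.2% of all HSF1 sites. That share is over intervals of any length, and a longer interval has more room for a match. The intervals were 2451 bp at ST13 and 2466 bp at BAG2, but 693 bp at BAG3 and 399 bp at BAG5. CACGTG was found near the strongest MYC summit at none of the 8 genes with a MYC site, against 8.31% of all MYC sites and 5.88% of gene starts. In the whole MYC interval it was found at 4 of the 8, BAG1, BAG2, BAG3 and BAG4, against 30.4% of all MYC sites. This count is by gene and the share by site, again over intervals of any length. The E-boxes in the BAG1 and BAG3 intervals are shown in capitals on the strand of the gene, to be set beside that of BAG2.
BAG1 intron 1 site, chr9:33264151-33264156 in capitals, GRCh38, minus strand: ttagtCACGTGtcctc
BAG3 intron 1 site, chr10:119668101-119668106 in capitals, GRCh38, plus strand: ctgagCACGTGgctgt
The site of BAG1 was 736 bp and that of BAG3 198 bp from the strongest MYC summit. The E-box of BAG4, which is not shown, lay within 250 bp of the strongest MYC summit of that gene. A match of these letters describes the window and does not show a binding site. G and C made up 57.7 to 73.6% of the 201 bp around the starts of the 9 genes, above the median of 63.2% over all protein-coding genes at every member except BAG4.

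The 9 genes were read beside 39 other genes of the HSP70 cycle, taken as fixed lists. HSF1 was reproducible at 20 of the 39, 51.3%, MYC at 33, 84.6%, and the intervals overlapped at 17, 43.6%. The shares of all protein-coding genes were 6.41%, 44.6% and 3.65%. Among 14 HSP70 and HSP110 genes, which encode HSP70 chaperones and their larger HSP110 relatives, 9 had HSF1 and 13 had MYC, with overlapping sites at HSPA1A, HSPA1B, HSPA1L, HSPA4, HSPA4L, HSPA8, HSPA9 and HSPH1. Among 10 cytosolic J-domain genes, whose products start the ATP cycle, 6 had HSF1 and 7 had MYC, with overlapping sites at DNAJA1, DNAJB1, DNAJB2 and DNAJB6. All 3 genes of the relay to HSP90, STIP1, HSP90AA1 and HSP90AB1, had overlapping sites. No reproducible HSF1 site lay at the 3 nucleotide exchange factors of the endoplasmic reticulum and mitochondria or at the 4 partners of BAG6. MYC had a site at 3 of each. At the all-gene share of 6.41%, lists this short would often hold no HSF1 site. Of the 5 partners of BAG3, the small heat shock protein genes HSPB1 and CRYAB had both factors at overlapping sites.

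**Figure D5:**
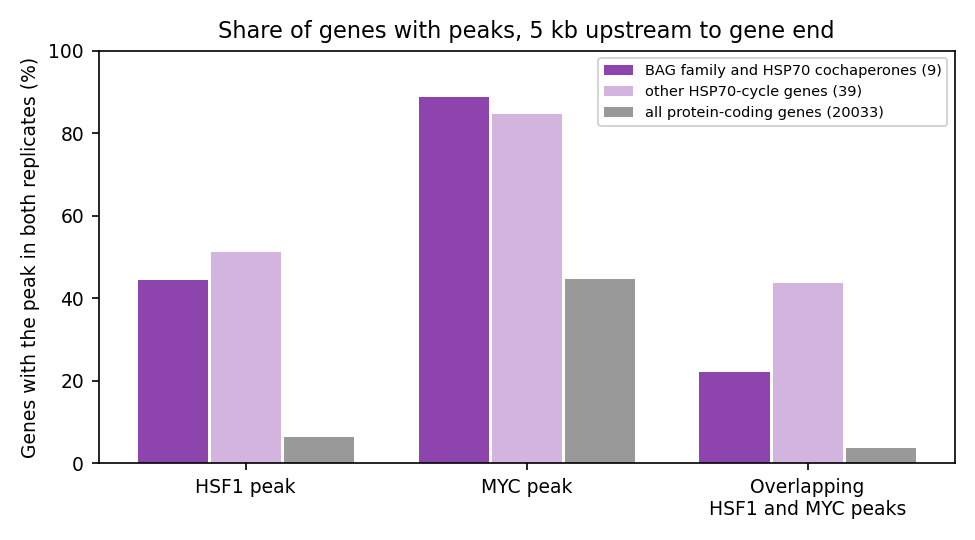
Percent of genes with a reproducible HSF1 peak, a reproducible MYC peak, or overlapping peaks of both from 5 kb upstream to the gene end, for the 9 cochaperone genes, 39 other genes of the HSP70 cycle and all 20033 protein-coding genes. The cochaperones stand at 44.4%, 88.9% and 22.2%, the other HSP70-cycle genes at 51.3%, 84.6% and 43.6%, and all genes at 6.41%, 44.6% and 3.65%.

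None of the 39 reached the HSF1 enrichment of ST13. By the mean of both replicates the highest was DNAJB6, a J-domain protein that keeps aggregation-prone chains soluble, at 48.4, with 37.1 in replicate 1 and 59.7 in replicate 2. HSPA8, higher than DNAJB6 in replicate 1 and lower in replicate 2, had 42.7 and 45.5, and HSP90AA1, the stress-inducible cytosolic HSP90, had 27.2 and 59.4. In each replicate all were below the 70.6 and 77.6 of ST13. BAG2, with 18.4 and 22.4, lay near DNAJA1, with 15.9 and 28.4, and HSPA1B, with 22.7 and 28.6. BAG3, with 6.25 and 13, lay near HSPA9, the mitochondrial HSP70, with 6.7 and 12.1. Values of HSPA1A, HSPA1B and HSPA1L are uncertain, since HSPA1A and HSPA1B are near-identical copies and HSPA1A and HSPA1L share their site.

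The libraries differ little in depth. After filtering, depth ran from 8265647 to 10084407 fragments with HSF1 or MYC antibody and was 9306942 with IgG. The HSF1 lists held 6421 and 4459 peaks on these chromosomes and the MYC lists 25623 and 13278, and the median log2 ratio of replicate 2 to replicate 1 in fold enrichment was −0.48 at MYC sites and 0.1 at HSF1 sites. In all, 10 and 7 HSF1 peaks and 15 and 11 MYC peaks fell in the windows of the 9 genes, and all are accounted for above or fall within an interval described there.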

How the data were processed

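The 4 peak lists deposited for HSF1 and MYC CUT&RUN in OVCAR8 were used. Per the file headers and the labels, the authors converted base calls with bcl2fastq 2.20.0, mapped reads on GRCh38/hg38 by Bowtie2, and ran MACS 2.2.9.1 on each library against 1 IgG library, keeping peaks with a p-value under 1e-04 (HSF1) or 1e-10 (MYC). The headers name that IgG library as a second replicate, while the labels list a single one. The authors deposited, for each peak, the pileup as a signal at the summit, the fold enrichment as a ratio to IgG, and −log10 p. The deposited −log10 q column was not used. Pileups were whole numbers in all 4 lists and were taken as unscaled fragments. The headers state that the larger library is scaled to the smaller. The background implied by the deposited fold enrichment equalled 1 IgG fragment times the ratio of antibody to IgG fragments at some peaks only. These were 734 of 6421 and 584 of 4459 HSF1 peaks, and 3296 of 25623 and 1223 of 13278 MYC peaks. It was lower at others: in HSF1 replicate 2 it was 0.535 at the BAG3 start and at BAG5, below 0.937 for 1 IgG fragment. Levels were compared per 1000000 fragments of the library.

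The members and the lists of other genes were chosen with earlier results of these data known. All 9 members are named, neighbours where they start within 1 kb of a member or in its peak, and other genes of the lists where both factors overlap. The genes most like ST13 were the 3 nearest by Euclidean distance of log2 fold enrichment over the 4 lists. In a gene with several intervals the strongest was used. Peaks within a list were merged into intervals with those of the other replicate (1 bp or more), with no test across genes. Windows and genes came from GENCODE 44, with 24 chromosomes found in the reference and 0 peaks past an end. Sequences were read from the GRCh38 genome. Python 3.11.15, pandas 2.3.3, numpy 2.4.6, pysam 0.24.0 and matplotlib 3.10.9 were used, and the interval and motif steps were tested on simulated data. Merging, window, gene start, thresholds, overlap, motif and single lists were varied.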

Additional observations from a re-analysis of the deposited data

How the results depend on the processing

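HSF1 was reproducible at 4 genes, and at 2 when its peaks were held to 1e-10. Either list alone gave 5 and the union 6. MYC counts stayed between 6 and 9 under every alternative run. Both factors were present at 4 genes, at 2 with windows of 1 kb either side of the start and at 2 with HSF1 at 1e-10. Overlap was found at 2 genes, at 5 with the union of lists, at 4 where a peak anywhere in each list sufficed, at 1 with gene bodies only, and at 2 to 4 with a single list left out. A heat shock element was found at 1 gene, BAG2. Over the whole interval or within 250 bp it was found at 2, BAG2 and ST13, against 25.2% and 24.6% of all HSF1 sites. With 1 mismatch or with 2 GAA units it was also found at 2, but these were BAG2 and BAG3. Of all HSF1 sites, 25.4% and 32.2% matched under those settings. The search around the strongest summit of either replicate was added after the data were seen and gave 1. CACGTG was found at 0 genes, at 4 over the whole interval and at 2 within 250 bp, and CACGTG or CACGCG at 0. Over all MYC sites the shares were 8.31%, 30.4%, 23.7% and 18.5%, in that order. The log2 ratio of HSF1 to MYC at BAG2 was −0.1, and −0.52 by fold enrichment, −0.38 to 0.18 with a replicate left out. At ST13 it stayed between 2.46 and 2.87. The HSF1 peaks of BAG3, BAG5, BAG1 and BAG4 rest on 7 to 19 fragments, and the lists hold no site below their threshold. No paired analysis was possible because the result comes from no test that could hold a replicate block. HSF1 and MYC lists of the same number were set side by side for the ratio, and are not known to share a culture. Pairing opposite replicate numbers leaves a mean log2 ratio as it is by construction and shows nothing about pairing.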
